A study of Mus musculus with 64 samples.

Results

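Gene levels in the hypothalamus were compared with those in the prefrontal cortex of the same unstressed mice. The members were the 8 hypothalamus and the 8 prefrontal cortex libraries labelled as controls, 16 of the 64 libraries of the study, matched through the animal code (C1 to C8) that ends each library's name. The animals were male BALB/c mice, an inbred laboratory strain, aged 28 weeks. They had stayed unstressed while other mice of the same strain, sex and age, 8 of them with libraries of these regions, went through UCMS (unpredictable chronic mild stress), 9 weeks of changing mild stressors used to model depression. The labels name no transgene and no drug for either group, and tissue was taken from both between ZT12.5 and ZT14.5, where ZT counts hours from lights on. Total RNA of dissected tissue was depleted of ribosomal RNA and made into directional libraries from 100 ng. The levels are log2 values that the authors normalized apart in each region, in a table of 16155 genes for hypothalamus and one of 15697 for prefrontal cortex. That is the main limit of every comparison between the regions. The 15278 genes found in both tables were placed on 1 common distribution, the 10% with the lowest mean were left out, and 13750 were tested with limma within animals.

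The hypothalamus is built from many small groups of neurons, several of which make peptide hormones that govern feeding, water balance, growth, reproduction and the stress response. Its excitatory neurons load glutamate into vesicles mainly through the transporter VGLUT2. The prefrontal cortex is a layered sheet in which most neurons are excitatory pyramidal cells that use VGLUT1, with a minority of local inhibitory interneurons, and it is known for planning and for control over stress circuits. In bulk tissue, fewer cells of a type and less RNA per cell cannot be told apart, and this holds for each difference below.

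Of 13750 genes, 7026 (51.1%) differed between the regions at an adjusted p under 0.05, 3987 (29%) higher and 3039 (22.1%) lower in hypothalamus. Over all genes tested, called or not, the median size of a difference was 0.229 on the log2 scale. A stricter rule, which tests whether a difference exceeds 2-fold, called 259 genes (1.88%), 69 higher (0.502%) and 190 lower (1.38%). Counts of called members of a gene list are read against the 29% and 22.1%. Differences are given as hypothalamus minus prefrontal cortex, and the median over all genes tested was 0.04. On the values as deposited it was 0.13, and the share of called genes that were higher in hypothalamus then went from 56.7% to 70.3% (from 26.6% to 37.6% under the 2-fold rule), so a small difference is read against that shift. The 2 groups of libraries did not overlap for 1309 genes (9.52%) with hypothalamus higher and for 1091 (7.93%) with hypothalamus lower.

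**Figure D1:**
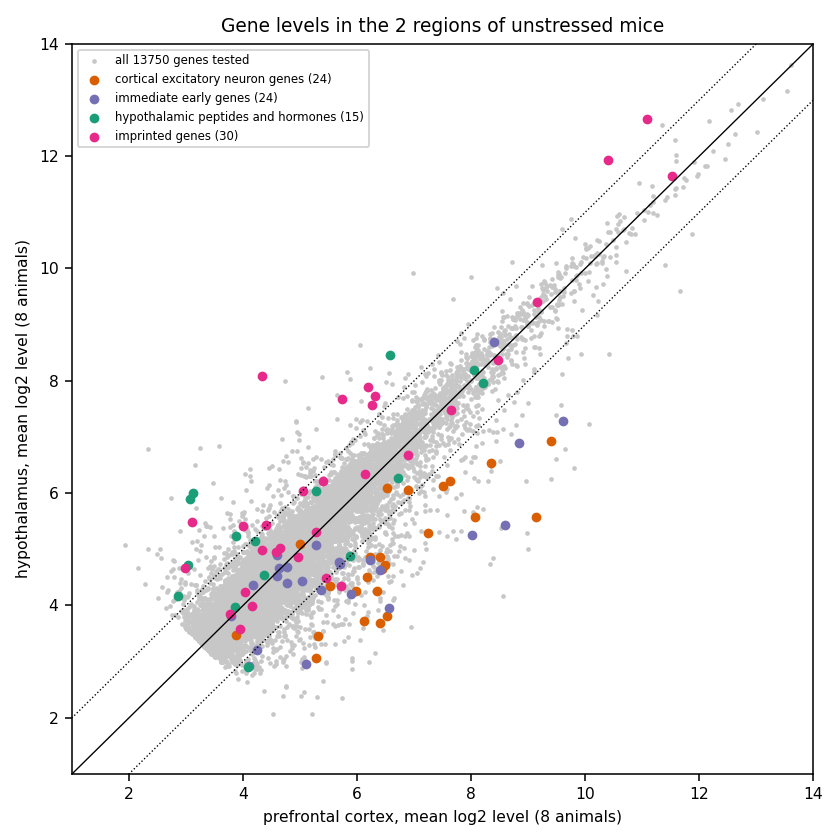
Mean log2 level of each of the 13750 genes tested in prefrontal cortex (x axis) and hypothalamus (y axis), 8 animals each; grey points are all genes, coloured points 4 gene lists, the solid line equal levels and the dotted lines a 2-fold difference. The cortical excitatory neuron genes lie below the solid line with 1 exception among 24, and the peptide, hormone and imprinted genes lie on both sides of it.

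Several libraries stood apart in ways that touch these results. Hypothalamus libraries 1 and 7 and prefrontal cortex library 1 were rich in red cell RNA, with a median over 4 red cell markers of 15.22, 15.04 and 15.44, against 5.87 to 9.82 in the other 13. The same hypothalamus libraries had the highest levels of cortical excitatory neuron genes within their region, with list medians of 5.65 and 5.45 against 4.23 to 4.88 in the other 6. Prefrontal cortex library 2 was lowest in its region for that list (6.01, against 6.41 to 6.53), and highest for choroid plexus markers (7.14, against 2.86 to 5.34) and hypothalamic transcription factors (5.38, against 3.96 to 4.79). Markers of the striatum, which borders the frontal cortex, spread widely between the prefrontal cortex libraries, from a list median of 3.54 in library 3 to 6.61 in library 2 and 6.89 in library 6. Hypothalamus library 5 had the highest level of thalamic genes, 5.87 against 3.38 to 4.12. Without animals 1 and 7 the 2 rules called 6323 and 272 genes, and without animals 1, 2 and 7, a choice made after seeing the data, 6574 and 321. Pearson's r between libraries over the genes ran from 0.930 to 0.985 within hypothalamus, from 0.900 to 0.984 within prefrontal cortex and from 0.864 to 0.934 between the regions.

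**Figure D2:**
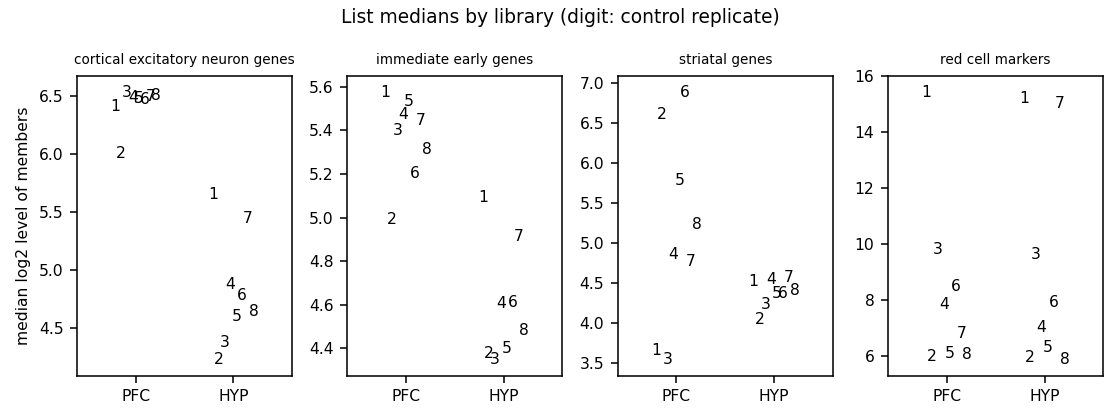
Median log2 level of the members of 4 gene lists in each library of prefrontal cortex (PFC) and hypothalamus (HYP); each digit is the number of the control animal. Hypothalamus libraries 1 and 7 are high for red cell markers and for cortical genes, prefrontal cortex library 1 is high for red cell markers, and the prefrontal cortex libraries spread from 3.54 to 6.89 for striatal genes.

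The peptide genes Scg2, Cartpt and Sst carry in their promoter the palindrome TGACGTCA, the full cyclic AMP response element that factors of the CREB family recognise, and they are shown because they took different courses between the regions. The sequences are RefSeq promoters of build GRCm38.p6, 300 bases around the start of the gene with 50 of them after it, all on the minus strand, written 5′ to 3′ with the element in capitals. Scg2 lies at chr1:79439977-79440276, Cartpt at chr13:99900634-99900933 and Sst at chr16:23890795-23891094, and the element begins 68, 112 and 48 bases before the start.
Scg2: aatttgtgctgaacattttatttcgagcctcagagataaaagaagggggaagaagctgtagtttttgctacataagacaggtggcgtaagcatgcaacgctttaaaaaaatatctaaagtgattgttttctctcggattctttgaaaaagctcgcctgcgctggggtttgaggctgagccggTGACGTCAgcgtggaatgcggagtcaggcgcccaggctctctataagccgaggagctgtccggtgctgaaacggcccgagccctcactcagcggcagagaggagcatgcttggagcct
Cartpt: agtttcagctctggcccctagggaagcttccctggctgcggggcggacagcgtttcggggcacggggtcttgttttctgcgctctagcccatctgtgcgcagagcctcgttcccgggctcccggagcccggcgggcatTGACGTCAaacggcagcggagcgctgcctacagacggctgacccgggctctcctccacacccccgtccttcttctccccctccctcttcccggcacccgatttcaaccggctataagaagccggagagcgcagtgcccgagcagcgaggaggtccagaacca
Sst: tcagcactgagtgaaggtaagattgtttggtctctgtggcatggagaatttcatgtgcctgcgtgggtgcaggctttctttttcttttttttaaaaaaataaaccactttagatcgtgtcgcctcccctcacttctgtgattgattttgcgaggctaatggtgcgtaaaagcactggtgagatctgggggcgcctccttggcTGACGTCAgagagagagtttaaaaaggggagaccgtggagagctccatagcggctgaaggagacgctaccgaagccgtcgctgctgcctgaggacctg
Secretogranin 2 (Scg2) and Cartpt were higher in hypothalamus and somatostatin (Sst) did not pass the test, with the values given below. The element was found in 3 of the 29 peptide and hormone genes that matched the promoter table (10.3%) and in 3.56% of the 9913 matched among all genes tested. It was found in 2.03% of all 27025 genes with a promoter of that length, or in 1.79% of their 32851 promoters. Among 19 matched immediate early genes it was found in 3 (15.8%), Btg2, Dusp1 and Ppp1r15a, whose differences between the regions were -0.20 ± 0.10 (adjusted p = 0.132), -0.09 ± 0.11 (adjusted p = 0.526) and -0.06 ± 0.098 (adjusted p = 0.621). It was found in none of the 36 promoters of 19 matched cortical excitatory neuron genes. A match describes these letters in this window and not the binding of a factor.

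Genes of cortical excitatory neurons were lower in hypothalamus. Of 24 listed, 23 were called lower and none higher, and 11 passed the 2-fold rule, with a median difference of -1.78 against 0.04 over all genes tested. In hypothalamus Slc17a7, which encodes VGLUT1, had a lowest, median and highest level of 3.26, 5.57 and 7.43, and in prefrontal cortex of 7.97, 9.36 and 9.52. The groups did not overlap, and the 2 highest hypothalamus values came from libraries 1 and 7. The difference was -3.58 ± 0.36 (SE, n = 8 animals, adjusted p = 2.85e-05), or 11.9-fold lower in hypothalamus. Neurogranin (Nrgn), a calmodulin-binding protein of dendritic spines, stood at 5.65, 6.79 and 8.45 in hypothalamus and at 8.17, 9.65 and 10.02 in prefrontal cortex. Its groups overlapped, since hypothalamus libraries 1 and 7 lay above prefrontal cortex library 2, and its difference was -2.47 ± 0.23 (SE, n = 8 animals, adjusted p = 1.97e-05). Camk2a, the main calcium and calmodulin-dependent kinase of excitatory synapses, stood at 5.79, 6.36 and 7.49 and at 7.73, 8.46 and 8.67, with no overlap and a difference of -1.81 ± 0.16 (SE, n = 8 animals, adjusted p = 1.27e-05).

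Other members of that list covered vesicles, zinc, adhesion and second messengers. Sv2b, a synaptic vesicle glycoprotein, differed by -1.95 ± 0.14 (adjusted p = 4.82e-06), and Slc30a3, which loads zinc into glutamate vesicles, by -1.86 ± 0.19 (adjusted p = 2.89e-05). Itpka, which phosphorylates inositol trisphosphate in spines, differed by -2.72 ± 0.30 (adjusted p = 5.07e-05), and Icam5, an adhesion molecule of forebrain dendrites, by -1.79 ± 0.25 (adjusted p = 0.000216). Cholecystokinin (Cck), a peptide of cortical neurons of both kinds, differed by -2.50 ± 0.21 (adjusted p = 1.02e-05). Lingo1, a Nogo receptor partner, was the member that was not called, at 0.10 ± 0.083 (adjusted p = 0.325). Without animals 1 and 7 the list median was -2.01, and without animals 1, 2 and 7 it was -2.05.

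Transcription factors of the cortex were mostly lower as well, with 15 of 22 tested called lower, 7 not called, none higher, and a median difference of -0.76. Differences in this list ran from -2.71 to 0.50, and Neurod2 and Cux1 had a higher median level in hypothalamus. Neurod6, expressed by pyramidal neurons, had hypothalamus values of 2.16, 3.05 and 6.40 and prefrontal cortex values of 5.19, 6.56 and 6.67, lowest, median and highest. The hypothalamus values of libraries 1 and 7 were 6.40 and 5.72 and those of the other 6 lay from 2.16 to 3.61. The groups overlapped through hypothalamus libraries 1 and 7 and prefrontal cortex library 2, and the difference was -2.71 ± 0.45 (SE, n = 8 animals, adjusted p = 0.000710). Mef2c, a factor of synapse development, differed by -2.43 ± 0.17 (adjusted p = 4.03e-06), and Tbr1, a factor of deep-layer neurons, by -1.73 ± 0.20 (adjusted p = 6.52e-05). Among early patterning factors of the telencephalon, Lhx2 differed by -1.26 ± 0.23 (adjusted p = 0.00133) and Emx2 by -1.22 ± 0.21 (adjusted p = 0.000792). Markers of single cortical layers were mixed, with 8 of 24 called lower, 6 higher and a median of -0.24. Over all genes tested 22.1% were lower and 29% higher. Lmo4 was lower, at -1.42 ± 0.14 (adjusted p = 2.19e-05), and Crym, which binds thyroid hormone, at -1.87 ± 0.49 (adjusted p = 0.00917). The layer markers ran from that value of Crym up to a difference of 0.78.

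**Figure D3:**
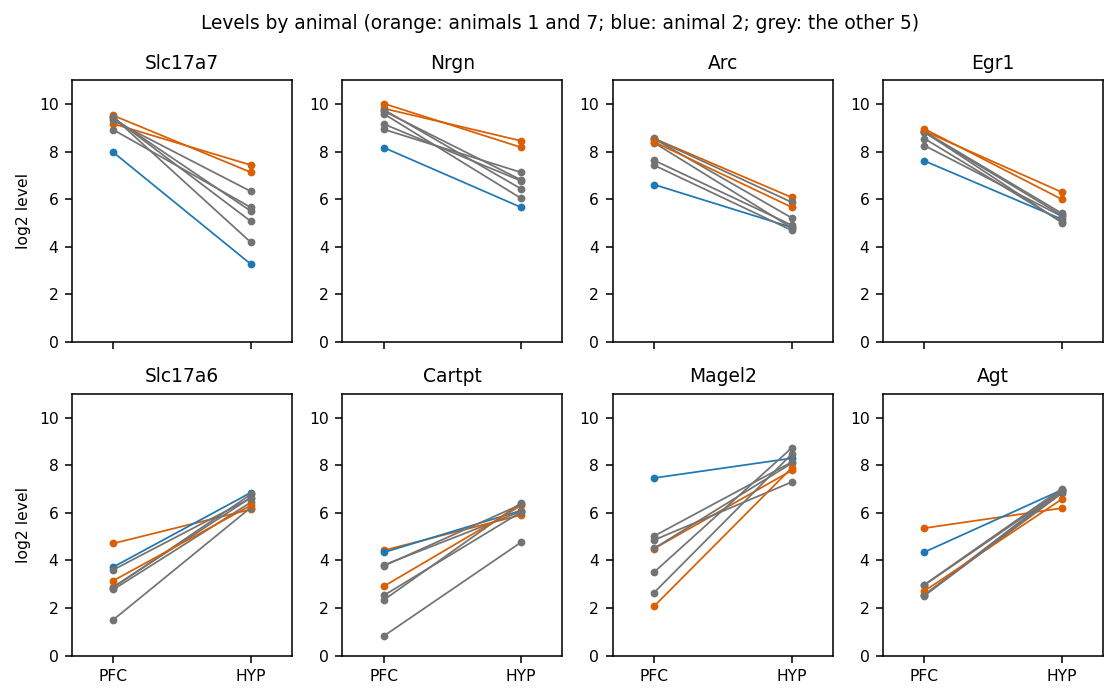
Log2 level of 8 genes in prefrontal cortex (PFC) and hypothalamus (HYP), with a line for each of the 8 unstressed animals. The upper 4 genes fall and the lower 4 rise from prefrontal cortex to hypothalamus in each animal; hypothalamus libraries 1 and 7 have the 2 highest levels of Slc17a7 and Nrgn in their region.

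Immediate early genes, which neurons transcribe within minutes of activity and which also run at a standing level, were lower in hypothalamus for 15 of 24 and higher for 1, with a median difference of -1.0. Egr1, a zinc finger factor of that class, stood at 5.01, 5.29 and 6.29 in hypothalamus, lowest, median and highest, and at 7.61, 8.81 and 8.95 in prefrontal cortex. All hypothalamus values lay below all prefrontal cortex values, and the difference was -3.15 ± 0.15 (SE, n = 8 animals, adjusted p = 3.19e-07). Arc, whose protein acts at active synapses, stood at 4.69, 5.06 and 6.08 against 6.61, 8.39 and 8.55, again with no overlap, for a difference of -2.76 ± 0.16 (SE, n = 8 animals, adjusted p = 1.34e-06). Homer1, a scaffold of the postsynaptic density, stood at 4.32, 4.63 and 5.05 against 5.56, 6.42 and 6.94 and differed by -1.77 ± 0.11 (SE, n = 8 animals, adjusted p = 1.97e-06). Junb, Ier5, Egr2, Egr3 and Nr4a1 differed by -1.93, -2.33, -2.16, -2.61 and -1.69, and these 8 genes passed the 2-fold rule. The class did not move as a whole. Fos, the gene most used to map active neurons, was not called, at -0.37 ± 0.14 (adjusted p = 0.0513), and Jun, its partner in the AP-1 factor, was the member called higher, at 0.30 ± 0.086 (adjusted p = 0.0147). Without animals 1 and 7 the list median was -1.21 and Jun differed by 0.19 with an adjusted p of 0.0763, and without animal 2 Fos differed by -0.49 with an adjusted p of 0.00340.

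Genes that make, load and clear transmitters separated the regions in both directions, with 9 of 14 tested called higher, 3 lower and a median of 0.69. Slc17a6, the gene of VGLUT2, stood at 6.15, 6.54 and 6.86 in hypothalamus and at 1.51, 3.02 and 4.72 in prefrontal cortex. It is also on the list of thalamic genes. The groups were more than 1 log2 unit apart at their nearest values, and the difference was 3.35 ± 0.28 (SE, n = 8 animals, adjusted p = 1.09e-05). Slc6a11, a GABA transporter of astrocytes, stood at 7.53, 8.08 and 8.43 against 5.46, 5.77 and 6.34 with no overlap, and differed by 2.16 ± 0.11 (SE, n = 8 animals, adjusted p = 7.11e-07). Of the 2 enzymes that make GABA, Gad2 was higher, at 0.83 ± 0.18 (adjusted p = 0.00293), and Gad1 was not called, at 0.18 ± 0.12 (adjusted p = 0.247). The vesicular GABA transporter Slc32a1 was higher, at 0.55 ± 0.14 (adjusted p = 0.00981), and so was the glycine transporter Slc6a9, at 1.47 ± 0.098 (adjusted p = 2.7e-06). Prefrontal cortex library 2 had the highest value of its region for Gad1, Gad2 and Slc32a1, 7.50, 6.81 and 8.61.

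Genes of the monoamines and of acetylcholine differed in both directions. Th, the first enzyme of dopamine synthesis, stood at 3.44, 4.53 and 5.72 in hypothalamus and at 1.11, 2.63 and 4.89 in prefrontal cortex. The groups overlapped, 6 of 8 animals were higher in hypothalamus, and the difference was 1.84 ± 0.60 (SE, n = 8 animals, adjusted p = 0.0262). It was no longer called without animal 2, 3, 4 or 7, at 1.56, 1.80, 1.44 and 1.64 with adjusted p values of 0.0599, 0.0546, 0.0639 and 0.0600. Ddc, which completes that synthesis, differed by 1.68 ± 0.27 (adjusted p = 0.000544), and the vesicular acetylcholine transporter Slc18a3 by 1.87 ± 0.48 (adjusted p = 0.00799). The vesicular monoamine transporter Slc18a2 went the other way, at 2.74, 3.92 and 5.09 against 5.75, 6.25 and 6.58, with no overlap and a difference of -2.32 ± 0.23 (SE, n = 8 animals, adjusted p = 2.77e-05). Its level in the hippocampus of the unstressed animals, brought to the same distribution, was 6.14, near that of prefrontal cortex. Whether the assignment of reads plays a part in the Slc18a2 values was not tested. The dopamine transporter Slc6a3 and the acetylcholine-synthesizing enzyme Chat had a hypothalamus value and no prefrontal cortex value here and were not compared.

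Hypothalamic peptides and hormones split into those found in both tables and those with a hypothalamus value alone. Of 35 listed, 15 were tested, 12 had a hypothalamus value and no prefrontal cortex value here, 2 were under the filter on low levels, and 6 were in neither table. Among the 15, 8 were called higher and 2 lower, with a median of 0.76. Cartpt, the precursor of the appetite-suppressing peptide CART, stood at 4.77, 6.09 and 6.43 in hypothalamus and at 0.82, 3.34 and 4.42 in prefrontal cortex. The groups did not overlap, and the difference was 2.88 ± 0.30 (SE, n = 8 animals, adjusted p = 3.43e-05). Trh, the precursor of thyrotropin-releasing hormone, stood at 5.17, 5.82 and 6.67 against 1.38, 2.89 and 5.61, where prefrontal cortex library 8 lay within the hypothalamus range, and differed by 2.82 ± 0.34 (SE, n = 8 animals, adjusted p = 9.4e-05). Secretogranin 2, a matrix protein of dense-core vesicles, stood at 7.79, 8.54 and 8.93 against 6.12, 6.50 and 7.13 with no overlap and differed by 1.88 ± 0.15 (SE, n = 8 animals, adjusted p = 8.03e-06).

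Pomc, the precursor of melanocortins and of beta-endorphin, stood at 1.15, 5.05 and 5.98 in hypothalamus and at 2.21, 3.13 and 3.81 in prefrontal cortex, for a difference of 1.70 ± 0.52 (SE, n = 8 animals, adjusted p = 0.0196). Hypothalamus library 5 was the lowest, and the next lowest hypothalamus value was 4.58, above every prefrontal cortex value. Without animal 3 or 8 the call was lost, at 1.53 and 1.40 with adjusted p values of 0.0509 and 0.0508. The tachykinin gene Tac2 differed by 1.31 ± 0.19 (adjusted p = 0.000259), and Tac1 by 0.94 ± 0.26 (adjusted p = 0.0119), and without animals 1 and 7 Tac1 differed by 0.81 with an adjusted p of 0.0663. Adcyap1, the PACAP precursor, differed by 1.37 ± 0.38 (adjusted p = 0.0127), and the granin Chga by 0.76 ± 0.064 (adjusted p = 1.1e-05). The 2 members called lower were Vip and Npy, and somatostatin was not called: Vip differed by -1.18 ± 0.31 (adjusted p = 0.00899), Npy by -0.99 ± 0.20 (adjusted p = 0.00213) and somatostatin, at 7.51, 7.97 and 8.40 against 8.03, 8.18 and 8.42, by -0.24 ± 0.11 (SE, n = 8 animals, adjusted p = 0.0826). The opioid precursor Penk, abundant in striatum, ran from 4.96 to 8.69 in prefrontal cortex against 5.998 to 6.60 in hypothalamus, highest in the prefrontal cortex libraries 6 and 2 that were also highest for striatal markers, and was not called, at -0.44 ± 0.44 (adjusted p = 0.423).

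The hormones with a hypothalamus value alone are given as deposited. Pmch, the precursor of melanin-concentrating hormone, had a lowest, median and highest level of 8.59, 9.45 and 9.86. Hcrt, which encodes the orexins of wakefulness, stood at 7.60, 8.37 and 8.60. The water balance hormone vasopressin (Avp) stood at 8.15, 9.17 and 10.10, and oxytocin (Oxt), for milk ejection and social behaviour, at 6.44, 7.14 and 9.01. Oxytocin spread more widely between animals than the other 3. Lower in the same table were galanin (Gal) at 3.42, 4.60 and 5.21, neurotensin (Nts) at 3.80, 4.22 and 4.39, urocortin 3 (Ucn3) at 0.91, 4.57 and 5.33, the growth hormone-releasing hormone Ghrh at 1.80, 3.05 and 3.86 and the hunger peptide Agrp at 0.59, 3.16 and 4.07. In all, 877 genes had a value in the hypothalamus table alone, with a median level of 2.78 against 4.42 for that table, and 419 in the prefrontal cortex table alone. Beside the peptides, the highest of the 877 with a gene name was Parpbp at 10.07, 10.86 and 11.28. How the authors' counting used strand is not given in the sources used here. Whether the Parpbp level holds reads of an overlapping gene was not tested. Next came the muscarinic receptor gene Chrm5 at 5.49, 6.62 and 6.91 and the matrix gene Frem3 at 4.81, 5.89 and 7.04. Npbwr1, a neuropeptide receptor, followed at 4.52, 5.27 and 5.88. The highest of the prefrontal cortex table alone were Xirp2 at 2.19, 4.81 and 5.19 and Dnah7c at 3.74, 4.42 and 4.81.

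The enzymes and vesicle proteins that turn precursors into peptides did not move together. Of 10, 4 were called higher and 3 lower, against 29% and 22.1% over all genes tested, with a median of 0.19. Baiap3, a vesicle trafficking protein related to Munc13, stood at 5.06, 5.94 and 6.49 in hypothalamus against 0.996, 2.27 and 4.90 in prefrontal cortex, with no overlap and a difference of 3.18 ± 0.37 (SE, n = 8 animals, adjusted p = 7.07e-05). Pam, which amidates peptides, was higher, at 0.60 ± 0.10 (adjusted p = 0.000915), and the convertase Pcsk2 was lower, at 5.89, 6.17 and 6.28 against 6.42, 7.15 and 7.31 and a difference of -0.95 ± 0.12 (SE, n = 8 animals, adjusted p = 0.000125). Resp18, a secretory granule protein outside that list, was among the 12 genes with the largest positive difference, at 7.59, 8.13 and 8.44 against 5.02, 5.20 and 6.13 and 2.69 ± 0.15 (SE, n = 8 animals, adjusted p = 8.82e-07).

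Transcription factors that pattern the hypothalamus were for the most part not comparable. Of 47 listed, 25 had a hypothalamus value and no prefrontal cortex value here, among them Foxb1 at 3.91, 5.10 and 5.75, Fezf1 at 3.05, 4.47 and 4.85, Sox14 at 2.77, 4.40 and 4.73, Otp at 3.01, 3.96 and 5.03 and Sim1 at 3.08, 3.85 and 4.31. Of the 21 tested, 5 were called higher and 4 lower, near the 29% and 22.1% over all genes tested, and the median was 0.05. Nkx2-1, which specifies the ventral hypothalamus, stood at 2.86, 4.58 and 4.90 against 0.82, 2.23 and 4.86. The groups overlapped, with prefrontal cortex library 2 the highest of its region at 4.86, and the difference was 1.75 ± 0.46 (SE, n = 8 animals, adjusted p = 0.00977). Six3, an anterior patterning factor, stood at 6.04, 6.36 and 6.96 against 1.21, 3.97 and 6.50, overlapped through prefrontal cortex libraries 2 and 6, and differed by 2.30 ± 0.51 (SE, n = 8 animals, adjusted p = 0.00393). Nkx2-2, also a factor of oligodendrocyte precursors, stood at 4.54, 5.11 and 5.47 against 3.12, 3.59 and 4.24 with no overlap, and differed by 1.46 ± 0.10 (SE, n = 8 animals, adjusted p = 3.55e-06). The 4 lower members, Pou3f1, Foxp1, Meis2 and Arnt2, are also expressed by cortical or striatal neurons, and differed by -1.87 ± 0.14 (adjusted p = 5.14e-06), -0.98 ± 0.096 (adjusted p = 2.64e-05), -0.87 ± 0.22 (adjusted p = 0.00711) and -0.72 ± 0.13 (adjusted p = 0.00101). Without animals 1, 2 and 7, Six3 differed by 2.61 (adjusted p = 0.0135), while without animal 2 Nkx2-1 and the receptor genes Mc3r and Galr1 lay among the 10% of genes with the lowest mean and were not tested.

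Of 36 listed receptors for hormones and feeding signals, 25 were tested. Another 6 had a hypothalamus value and no prefrontal cortex value here, among them Ghsr and Avpr1a. A further 4 were under the filter on low levels, and 1 was in neither table. Of the 25 tested, 7 were higher and 6 lower, near the 29% and 22.1% over all genes tested, with a median of -0.0021. The melanocortin receptor Mc3r stood at 4.05, 5.14 and 5.75 in hypothalamus against 0.29, 1.51 and 4.81 in prefrontal cortex. Prefrontal cortex library 2 alone lay within the hypothalamus range, at 4.81, and the difference was 3.13 ± 0.58 (SE, n = 8 animals, adjusted p = 0.00138). Mc4r, the other brain melanocortin receptor, differed by 0.66 ± 0.14 (adjusted p = 0.00284), and the galanin receptor Galr1 by 2.10 ± 0.43 (adjusted p = 0.00230). The neurokinin B receptor Tacr3 differed by 1.71 ± 0.38 (adjusted p = 0.00376), and Ntsr2, a neurotensin receptor of astrocytes, by 1.18 ± 0.070 (adjusted p = 1.36e-06), with no overlap. The oxytocin receptor Oxtr was called at 0.68 ± 0.21 (adjusted p = 0.0212), but not without animal 4 or 6 (0.60 and 0.59, adjusted p = 0.0567 and 0.0545). The thyroid hormone receptor Thrb was lower, at -0.94 ± 0.081 (adjusted p = 1.21e-05), and the glucocorticoid receptor Nr3c1 was not called, at -0.21 ± 0.088 (adjusted p = 0.0653), though it was without animal 2 (-0.29, adjusted p = 0.00613). The prolactin receptor Prlr, which choroid plexus expresses strongly, was called lower at -1.34 ± 0.47 (adjusted p = 0.0368). Prefrontal cortex library 2 was at 8.29, against 3.001 to 5.87 in the other 7 and a range of 3.59 to 4.29 in hypothalamus. Without animal 2 the difference was -0.92 with an adjusted p of 0.0563, and without animal 1, 4, 5, 6 or 7 the adjusted p was 0.0654, 0.0737, 0.0799, 0.0759 or 0.0569.

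Ionotropic glutamate receptors were lower for 5 of 10 subunits and higher for 2, with a median of -0.39. Grin2a, an NMDA receptor subunit that rises as the forebrain matures, stood at 4.07, 4.59 and 5.54 against 5.33, 6.49 and 6.83 and differed by -1.61 ± 0.17 (SE, n = 8 animals, adjusted p = 3.49e-05), with an overlap through prefrontal cortex library 2. Grin2b differed by -1.23 ± 0.10 (adjusted p = 9.31e-06) and the AMPA subunit Gria3 by -1.25 ± 0.085 (adjusted p = 2.99e-06), both with no overlap. Grin2d, an NMDA subunit of the diencephalon and of interneurons, was higher, at 0.63 ± 0.069 (adjusted p = 4.9e-05). Of 7 metabotropic receptors 2 were lower and 1 higher, and Grm3 stood lowest, at -1.17 ± 0.12 (adjusted p = 3.61e-05).

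GABA-A receptor subunits were called higher for 3 of 12 and lower for 3, with a median of -0.05, shares near the 29% and 22.1% over all genes tested. Gabrg1 stood at 5.38, 5.59 and 5.95 in hypothalamus against 3.63, 3.79 and 5.08 in prefrontal cortex, without overlap, and differed by 1.64 ± 0.13 (SE, n = 8 animals, adjusted p = 8.66e-06). Gabrd and Gabra4, which assemble into receptors outside synapses, were lower, at -1.65 ± 0.31 (adjusted p = 0.00136) and -0.98 ± 0.15 (adjusted p = 0.000437), and hypothalamus library 5, highest for thalamic genes, was highest in its region for both (5.28 and 5.84). Gabrq and Gabre had a hypothalamus value and no prefrontal cortex value here, at 3.16, 4.31 and 4.83 and 2.42, 3.37 and 4.44.

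Serotonin receptors were called higher for 3 of 9 and lower for 3, against 29% and 22.1% over all genes tested. Htr2c, a receptor in appetite control, stood at 5.13, 5.71 and 6.04 against 2.86, 3.77 and 5.76 and differed by 1.67 ± 0.27 (SE, n = 8 animals, adjusted p = 0.000620), with prefrontal cortex library 2 inside the hypothalamus range. Htr7 differed by 1.48 ± 0.15 (adjusted p = 3.61e-05) and Htr1d by 2.04 ± 0.30 (adjusted p = 0.000309), both with no overlap, and Htr1f was lower, at -1.51 ± 0.11 (adjusted p = 5.14e-06). Receptors for dopamine and noradrenaline were lower for 5 of 10 and higher for 3, with a median of -0.40. Adrb1, the beta-1 adrenergic receptor, stood at 6.15, 6.55 and 7.08 against 7.55, 8.65 and 8.99 with no overlap and differed by -1.92 ± 0.14 (SE, n = 8 animals, adjusted p = 4.27e-06). Adra2a was higher, at 1.0 ± 0.23 (adjusted p = 0.00449). The dopamine receptor Drd1 stood at 5.45, 5.59 and 6.18 against 6.36, 8.17 and 9.88 with no overlap and differed by -2.50 ± 0.36 (SE, n = 8 animals, adjusted p = 0.000304). The prefrontal cortex libraries highest for Drd1, 6 and 2, were also highest for the striatal list, of which Drd1 is a member. Of that list 4 of 14 were called lower and 1 higher, with a range of the list median over the animals from -2.12 to 1.18. The part of striatal tissue in these values was not tested.

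Potassium channel genes were lower for 24 of 48 and higher for 8, with a median of -0.39. Kcnf1, a silent subunit that modifies Kv2 channels, stood at 8.04, 8.50 and 8.87 against 9.75, 10.52 and 10.88 with no overlap and differed by -1.93 ± 0.13 (SE, n = 8 animals, adjusted p = 3.66e-06). Kcnh3, Kcns1 and Kcnv1 were lower as well, by -2.40, -1.89 and -1.79. Kcnj5, a subunit of the inward rectifiers that G proteins open, stood at 4.08, 5.11 and 5.61 against 1.30, 2.16 and 3.68, did not overlap and differed by 2.67 ± 0.26 (SE, n = 8 animals, adjusted p = 2.56e-05). Kcna4 was higher, at 0.96 ± 0.11 (adjusted p = 8.51e-05), and Kcnj10, the potassium channel of astrocytes, at 0.70 ± 0.10 (adjusted p = 0.000294). Interneuron genes of the cortex were higher for 6 of 19 and lower for 4, near the shares over all genes. The calcium-binding protein Calb2 was higher, at 2.30 ± 0.30 (adjusted p = 0.000162), and Lamp5, of a neurogliaform class, lower, at -2.36 ± 0.15 (adjusted p = 2.02e-06).

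Imprinted genes, which are expressed from 1 parental copy and several of which act on growth and feeding, were higher for 18 of 30 and lower for 3, with a median of 0.37. Magel2, in the interval deleted in Prader-Willi syndrome, stood at 7.30, 8.11 and 8.73 in hypothalamus and at 2.08, 4.50 and 7.47 in prefrontal cortex. Prefrontal cortex library 2, at 7.47, lay within the hypothalamus range and the other 7 at 5.03 or below, and the difference was 3.76 ± 0.52 (SE, n = 8 animals, adjusted p = 0.000220), or 13.6-fold higher in hypothalamus. Its neighbour Ndn stood at 11.55, 11.98 and 12.28 against 10.04, 10.23 and 11.25 with no overlap and differed by 1.53 ± 0.11 (SE, n = 8 animals, adjusted p = 5.2e-06). Peg3, a zinc finger gene of growth and maternal care, stood at 7.32, 7.76 and 8.02 against 6.17, 6.28 and 6.70, with no overlap and a difference of 1.41 ± 0.085 (SE, n = 8 animals, adjusted p = 1.54e-06). Nap1l5 differed by 1.59 ± 0.10 (adjusted p = 1.97e-06), Impact by 1.30 ± 0.091 (adjusted p = 3.73e-06) and Dlk1, a Notch-like factor, by 2.37 ± 0.47 (adjusted p = 0.00211). Nnat differed by 1.94 ± 0.28 (adjusted p = 0.000311) and lies wholly within the span of Blcap on the opposite strand, which differed by 0.98 ± 0.12 (adjusted p = 0.000110), and how the authors' counting used strand is not given in the sources used here. Not every imprinted gene went up: Plagl1, itself a regulator of imprinted genes, stood at 3.62, 4.38 and 4.82 against 5.17, 5.71 and 6.21 with no overlap and a difference of -1.38 ± 0.13 (SE, n = 8 animals, adjusted p = 1.73e-05), and Zdbf2 differed by -0.98 ± 0.14 (adjusted p = 0.000230). Meg3, a maternally expressed noncoding RNA, was not called, at -0.21 ± 0.098 (adjusted p = 0.103).

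**Figure D4:**
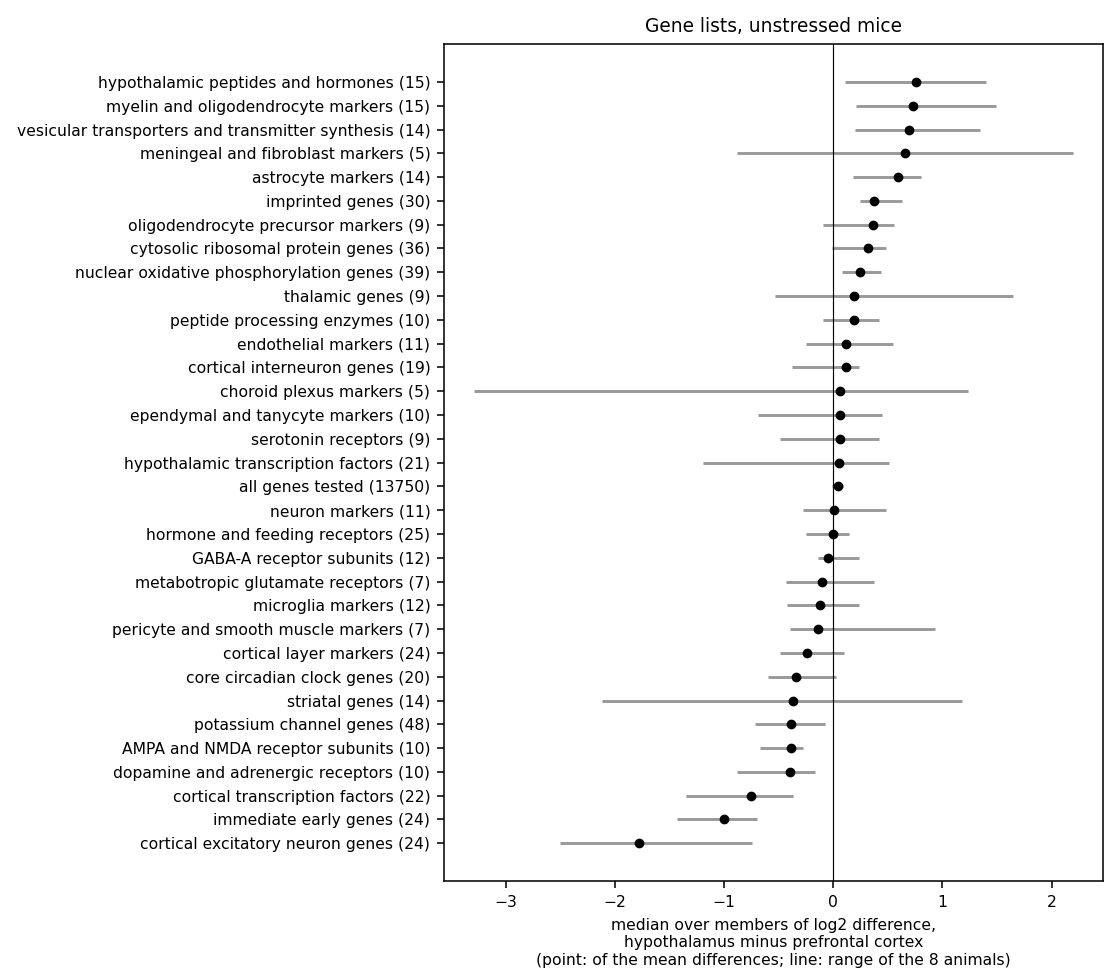
Median over the tested members of each gene list with 5 or more of them (their number in brackets) of the log2 difference, hypothalamus minus prefrontal cortex; points are medians of the mean differences and lines the range of that median over the 8 animals. Of the lists drawn, cortical excitatory neuron genes stand lowest at -1.78 and peptides and hormones highest at 0.76, and the lines of striatal, choroid plexus and thalamic genes reach far on both sides of 0.

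Glia differed as well. Of 14 astrocyte markers 10 were higher and 1 lower, with a median of 0.59. Agt, the angiotensin precursor made by astrocytes, stood at 6.20, 6.92 and 7.02 against 2.52, 2.84 and 5.36. The groups did not overlap, and the difference was 3.55 ± 0.37 (SE, n = 8 animals, adjusted p = 3.59e-05), or 11.8-fold higher in hypothalamus. The intermediate filament gene Gfap differed by 1.34 ± 0.16 (adjusted p = 0.000101) and the water channel Aqp4 by 1.11 ± 0.16 (adjusted p = 0.000243), both with no overlap. Slc1a2, the main glutamate transporter of astrocytes, was the member called lower, at 8.47, 8.68 and 8.91 against 9.46, 9.61 and 9.91 and a difference of -0.99 ± 0.058 (SE, n = 8 animals, adjusted p = 1.34e-06). Gpx3, a secreted glutathione peroxidase outside the list, stood at 6.04, 6.82 and 7.38 against 2.90, 3.40 and 4.77 and differed by 3.25 ± 0.23 (SE, n = 8 animals, adjusted p = 3.6e-06).

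Myelin and oligodendrocyte markers were higher for 11 of 15 and lower for 1, with a median of 0.73. Trf, an iron carrier made by oligodendrocytes, differed by 1.01 ± 0.13 (adjusted p = 0.000152) and was higher in hypothalamus in 8 of 8 animals although the 2 groups overlapped. Precursor markers were higher for 6 of 9 and lower for none, with Olig1 at 0.61 ± 0.067 (adjusted p = 5.22e-05). Microglia markers were mostly not called, with 3 of 12 lower, 1 higher and a median of -0.12. P2ry12 was lower, at -1.29 ± 0.16 (adjusted p = 0.000111), and its hypothalamus values were 5.89 and 5.42 in libraries 1 and 7 against 3.80 to 4.50 in the other 6. Endothelial markers were higher for 3 of 11, near the 29% over all genes tested. None of 7 pericyte and 4 red cell markers was called at an adjusted p under 0.05. General neuron markers were split, with 4 of 11 higher and 3 lower, against 29% and 22.1% over all genes tested. Among the lower were Rbfox3 at -1.03 ± 0.10 (adjusted p = 2.49e-05) and Snap25 at -0.77 ± 0.11 (adjusted p = 0.000239). The largest positive difference of a neuron marker was 0.42, and the list median was 0.007. Markers of neighbouring tissues gave few calls. Of 16 ependymal and tanycyte markers listed, 10 were tested, of which 2 were higher and 2 lower. Of the rest, 3 had a hypothalamus value alone, among them Rax and Gpr50, and 3 were under the filter on low levels. Of 9 thalamic genes tested 1 was higher and 1 lower. The thalamic gene called higher was Slc17a6, given above with the transmitter genes. Of 12 meningeal markers listed, 5 were tested, with 1 higher and 1 lower. Of 12 choroid plexus markers listed, 5 were tested, with 1 lower. The list medians spread widely between animals, from -3.29 to 1.23 for choroid plexus and from -0.54 to 1.64 for thalamic genes. How much neighbouring tissue the libraries held was not tested. Of the genes of posterior patterning 1 was tested, En1 of midbrain and hindbrain, called higher at 1.20 ± 0.46 (adjusted p = 0.0497) but not without animal 2, 3, 4, 5, 6 or 7 (adjusted p from 0.0511 to 0.118). Of the pituitary genes 1 was tested, Chga, given above with the peptides.

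Genes of basic cell functions shifted by small amounts. Cytosolic ribosomal protein genes were higher for 23 of 36 and lower for 1, with a median of 0.31, which was 0.26 with the median difference of each animal set to 0. Rps15 was highest, at 0.86 ± 0.060 (adjusted p = 3.66e-06), and Rpl22 was the member called lower, at -0.95 ± 0.081 (adjusted p = 1.15e-05). Nuclear genes of oxidative phosphorylation were higher for 26 of 39 and lower for none, with a median of 0.25 (0.18 with that centring), and Ndufb5, a complex I subunit, stood highest at 0.64 ± 0.072 (adjusted p = 6.15e-05). Of 20 clock genes, sampled at 1 time of day, 11 were lower and 2 higher, with a median of -0.35. Npas2, a partner of Bmal1 in the forebrain, stood at 2.90, 3.26 and 3.93 against 4.23, 4.57 and 4.66 and differed by -1.18 ± 0.13 (SE, n = 8 animals, adjusted p = 4.73e-05). Per1, also in the immediate early list, differed by -1.10 ± 0.077 (adjusted p = 3.66e-06), Bhlhe40 by -0.95 ± 0.13 (adjusted p = 0.000184) and Nr1d1 by -0.67 ± 0.061 (adjusted p = 1.69e-05). Arntl and Clock were not called, at -0.11 and -0.11.

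Some of the largest differences were nearly constant from animal to animal, and they are given with the hippocampus as a further region. Arf6, a small GTPase of membrane traffic (chr12:69372150-69373783 on GRCm38), stood at 4.83, 4.98 and 5.25 in hypothalamus and at 8.87, 8.98 and 9.21 in prefrontal cortex. The spread within each region was under 0.5, and the difference was -3.98 ± 0.075 (SE, n = 8 animals, adjusted p = 9.72e-10), or 15.8-fold lower in hypothalamus. In hippocampus its mean was 5.86. Zfp770, a zinc finger gene, stood at 4.50, 4.67 and 5.04 against 8.21, 8.32 and 8.52 and differed by -3.61 ± 0.092 (SE, n = 8 animals, adjusted p = 4.85e-09), with a hippocampus mean of 4.52. Paqr7, a membrane progestin receptor, stood at 4.86, 5.35 and 5.52 against 8.44, 9.05 and 9.37 and differed by -3.70 ± 0.12 (SE, n = 8 animals, adjusted p = 2.11e-08), with a hippocampus mean of 5.78. For Fchsd1, a membrane-bending F-BAR protein with the largest negative difference, -4.38 ± 0.12 (SE, n = 8 animals, adjusted p = 6.52e-09), the values were 3.91, 4.18 and 4.40 against 8.15, 8.66 and 8.86, and the hippocampus mean of 8.39 lay with prefrontal cortex.

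**Figure D5:**
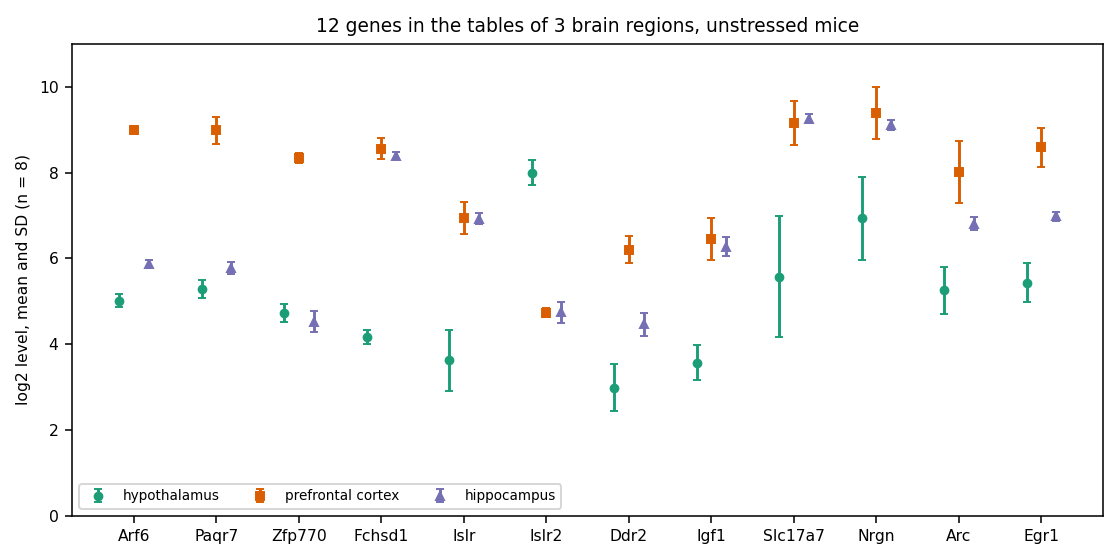
Mean and SD (n = 8 unstressed animals) of the log2 level of 12 genes in hypothalamus, prefrontal cortex and hippocampus on 1 common distribution; the value of each region comes from its own table. Arf6, Paqr7 and Zfp770 are near 9 or 8 in prefrontal cortex and at 6 or below in the other regions, while Slc17a7 and Nrgn are alike in prefrontal cortex and hippocampus.

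The neighbours Islr2 and Islr went in opposite directions. Islr2, a neuronal surface protein with leucine-rich repeats, stood at 7.51, 8.02 and 8.44 in hypothalamus against 4.58, 4.75 and 4.87 in prefrontal cortex, a difference of 3.26 ± 0.11 (SE, n = 8 animals, adjusted p = 3.08e-08). Islr, a related secreted protein of mesenchymal cells, stood at 2.76, 3.36 and 4.75 against 6.23, 6.94 and 7.43, a difference of -3.33 ± 0.27 (SE, n = 8 animals, adjusted p = 8.73e-06). The hippocampus means were 4.74 and 6.93, near those of prefrontal cortex for both. In GENCODE M21 on GRCm38 the genes share a strand and overlap on chromosome 9, Islr2 at chr9:58196297-58204319 and Islr at chr9:58156268-58204306, so the sources used here do not show to which gene shared reads were counted, and both values are uncertain.

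Among the 259 genes past the 2-fold rule, 89 had an SD under 0.3 in both regions, as had 10345 of all 13750, and 74 of the 89 were lower in hypothalamus. Of the 89, 17 (19.1%) had a symbol beginning Zfp, against 2.47% of all genes tested. The hippocampus mean lay within 0.5 of prefrontal cortex alone for 58 of the 89 and of hypothalamus alone for 23. Among the other genes past the 2-fold rule, 167 had a hippocampus value, and the same counts were 96 and 6. Over all genes tested 13724 had one, and the counts were 1961 and 503. A gene with a hippocampus mean within 0.5 of both regions entered neither count. Genes past the 2-fold rule cannot be that near to both, so the counts over all genes are no baseline for them. The longest exon block held over 50% of the exonic length in 68.7% of the 83 of these 89 genes that had an exon model and in 66.7% of the 147 with a model among the other 170 genes past the 2-fold rule, against 44.4% of the 12018 with a model among all genes tested. Hypothalamus libraries 1 and 7, in which cortical neuron genes stood high, were not raised for Arf6, which was 4.93 and 4.83 there and 4.86 to 5.25 in the other 6, while Camk2a was 7.49 and 7.31 against 5.79 to 6.53. Members of 1 complex also parted in this comparison. C1qa differed by -1.12 ± 0.11 (adjusted p = 2.46e-05) while C1qb and C1qc, which join it in complement C1q, differed by 0.03 ± 0.098 (adjusted p = 0.821) and -0.20 ± 0.12 (adjusted p = 0.195). Whether a step made separately in each table plays a part was not tested, and a difference between tables and a difference between regions cannot be told apart for such genes.

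The remaining genes with the largest differences were of several kinds. Irs4, an insulin receptor substrate on chromosome X, had the largest positive difference. It stood at 5.24, 6.78 and 7.67 in hypothalamus and at 0.96, 1.42 and 4.81 in prefrontal cortex, with no overlap. The difference was 4.45 ± 0.53 (SE, n = 8 animals, adjusted p = 8.11e-05), or 21.9-fold higher in hypothalamus. The prefrontal cortex values had an SD of 1.69, and their median lay well below the deposited median of 4.355 over that region's genes. The size of the fold therefore rests on low and scattered levels. Cbln1, an organiser of synapses, stood at 5.49, 6.19 and 6.70 against 2.77, 3.25 and 4.50 and differed by 2.72 ± 0.23 (SE, n = 8 animals, adjusted p = 1.18e-05). On the negative side stood Ddr2, a collagen receptor kinase, at -3.22 ± 0.23 (adjusted p = 3.78e-06), Dock5, an activator of Rac, at -3.05 ± 0.12 (adjusted p = 9.86e-08), and Ackr2, a chemokine scavenger, at -2.93 ± 0.26 (adjusted p = 1.42e-05). The collagen gene Col23a1, counted above among the ependymal and tanycyte markers, differed by -2.89 ± 0.31 (adjusted p = 4.16e-05), and the growth factor Igf1, at 3.02, 3.67 and 4.20 against 5.65, 6.43 and 7.27 with no overlap, by -2.88 ± 0.24 (SE, n = 8 animals, adjusted p = 1.02e-05).

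The same contrast in the 8 UCMS animals, which share no library with the controls but come from the same 2 tables, called 7161 genes (52.1%) and 313 (2.28%) under the 2-fold rule, 101 higher (0.735%) and 212 lower (1.54%). Of the 259 control genes past the 2-fold rule, 225 (86.9%) also passed it there in the same direction, 64 higher and 161 lower, and all 259 had the same sign. Slc17a7 differed by -3.84 in UCMS animals, Slc17a6 by 3.62, Egr1 by -3.17, Cartpt by 3.11, Magel2 by 4.50, Agt by 3.73 and Arf6 by -3.75. The difference of the contrast between UCMS and control animals was tested with limma over 13750 genes: 0 (0%) passed the adjusted threshold, the smallest adjusted p was 1, and 328 had an unadjusted p under 0.05, where 5% of the genes is 688. The genes with the smallest unadjusted p were Mpv17l, Nop16, Galns, Ppp1r3b and Car13, with contrasts in controls of -0.25, 0.42, -0.28, 0.68 and 0.43 and in UCMS animals of -0.62, -0.06, -0.77, 1.87 and 1.55.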

How the data were processed

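Total RNA of hypothalamus and prefrontal cortex from 8 unstressed mice was sequenced, 16 libraries of 64, and hippocampus and UCMS libraries serve as background. The deposited values are log2 levels per gene on a scale that the authors made separately in each region. The unit is read from the values, and their ranks share nearly the same values between libraries of a table, as quantile normalization gives. The submitters' processing notes name build GRCm38.p4; aligner, counter and use of strand: not given in the sources used here. Counts were not used here, so depth is unknown.

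Genes were matched by Entrez ID (15278 in both tables). The 16 libraries were brought to 1 common quantile distribution over these genes, and the 10% with the lowest mean were left out, leaving 13750. limma 3.58.1 in R 4.3.3 fitted region with animal as a block (lmFit, eBayes with trend, Benjamini-Hochberg), and its treat function tested a log2 difference above 1, the 2-fold rule. The code C1 to C8 in the labels marks the same animal in both regions. The deviations of an animal's 2 libraries from their group means correlated at 0.548, 0.189, 0.242, 0.309, 0.103, 0.199, -0.136 and 0.402 for C1 to C8. The highest correlation with another animal's library exceeded the own value for C3 (0.407), C5 (0.200), C6 (0.315) and C7 (0.533), so the pairing rests on the labels. The contrast of UCMS against control was tested on within-animal differences. The fit was tested on simulated data with 50 genes changed at each log2 size of 0.5, 1, 2 and 3 among 13750. At an adjusted p under 0.05 it found 70%, 80%, 100% and 100% of them. The 2-fold rule called 0%, 0%, 92% and 100%. Far fewer genes were changed there than the 51.1% called in the data, so the shares found can differ from those in the data.

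Named were the 12 genes with the largest difference in each direction past the 2-fold rule with the same sign in 8 animals and a symbol that is no gene model name, members of 24 gene lists and 11 cell type marker lists beside the count of their list, the genes with the highest mean in 1 table alone, and the 5 with the smallest p for the UCMS difference. Some members of these lists are not reported here by name. The members and lists were chosen with earlier results of these data known. Alternatives were values as deposited, library medians set equal, each animal's median difference set to 0, other filters, no trend, no replicate block and animals left out. Promoters are from RefSeq (GRCm38.p6) and gene spans from GENCODE M21 (GRCm38).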

Additional observations from a re-analysis of the deposited data

Results flagged for a closer look

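For each gene given with values above, the highest and the lowest library of each region were set against the other 7, and a library was listed where its gap to the nearest of them exceeded Dixon's 95% critical value. This was so for 30 of 308 gene and region groups, where chance alone lists about 1 in 20, here 15.4. The genes of a library are not independent of each other.

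Prefrontal cortex library 2 made up most of them. It was apart on the low side, with log2 levels in brackets, for Slc17a7 (7.97), Neurod6 (5.19), Tbr1 (4.97), Cck (6.62), Kcnh3 (5.34), Sv2b (6.50), Homer1 (5.56), Adcyap1 (1.48), Tac2 (1.29), Vip (2.47), Npy (5.19), Pcsk2 (6.42), Mef2c (6.06), Gria3 (5.83), Snap25 (8.85), Lmo4 (6.22) and Ackr2 (4.46), most of them genes of cortical neurons and their peptides. It was apart on the high side for Gabrg1 (5.08), Peg3 (6.70) and Nap1l5 (11.46), the last pair imprinted and higher in hypothalamus.

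Hypothalamus library 5 was low for Cartpt (4.77), Pomc (1.15), Zdbf2 (3.99), Irs4 (5.24) and Col23a1 (1.21). It was high for Gabra4 (5.84), Grm3 (6.19) and Htr1f (4.20), and it also had the highest median of thalamic genes, 5.87.

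The others were in single libraries. P2ry12 was high in prefrontal cortex library 1 (6.59) and Arf6 high in prefrontal cortex library 7 (9.21).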

How the results depend on the processing

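The counts of called genes kept within 1.5 times of 7026 and 259 under each alternative run. With 1 animal left out they ran from 6139 to 7256 and from 200 to 283. The values as deposited gave 7682 and 245, no filter on low levels 7158 and 254, and 25% of genes left out 6425 and 259. Without the replicate block, which pairs the regions by animal, 7149 and 261 were called and 234 of the 259 (90.3%) were shared. Of the genes named, Car13 then lost its call (0.43, adjusted p = 0.133 from limma), and Nr3c1 and Ppp1r3b gained one (adjusted p = 0.0203 and 0.0274).

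Genes that were not called changed sign near 0: C1qb (0.0302) was -0.0168 with each animal's median difference set to 0, ran from -0.0334 to 0.0922 with 1 animal left out and was -0.00969 without 1, 2 and 7. Dusp1 was 0.00275 as deposited and ran from -0.162 to 0.00117 with 1 animal left out, and Ppp1r15a was 0.0341 as deposited. Without animals 1 and 7 Pomc, Oxtr and Prlr also lost their calls (1.73, 0.54 and -1.36), Btg2 gained one (-0.34) and Magel2 missed the 2-fold rule (3.50). The median of dopamine and adrenergic receptors moved from -0.40 to -0.73 with 25% of genes left out, since fewer members were tested. Without sequencing depth, levels near the floor have no counting error, and a step made in 1 table alone was not tested.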
